A study of Mus musculus with 15 samples.

Results

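The keratin family was described here across tumour-derived mammary spheres treated with PHA, ICG or both. Keratins were taken as genes whose symbol on the array annotation was Krt followed by a number and at most 1 letter. Genes with symbols that begin with Krtap, Krtcap or Krtdap were thereby left out. This rule gave 48 keratins among 18193 genes with a measured probe set, and each gene was represented by its probe set with the highest mean signal. The spheres were grown for 7 days without attachment from single cells of primary mammary tumours of FVB/N mice and then treated for 24 h. All groups carried the genotype written WAPCre-DNbcatn;HGF. By general knowledge, WAPCre is Cre recombinase under the promoter of Wap, a milk protein gene of the secretory mammary epithelium, and HGF is the ligand of the MET receptor; the labels do not spell out the other allele. The arrays were parted into sets by a code in their titles, JAH for the first and JHO for the second. The titles do not say what the codes stand for. The first set of arrays held 3 PHA, 3 ICG and 3 DMSO arrays, and the second set held 3 PHA+ICG and 3 DMSO arrays, with 250 ng of total RNA behind each array. The series text names Wnt and MET pathway inhibitors. PHA is generally known as a drug name for an inhibitor of the MET kinase and ICG as one for a blocker of β-catenin-driven transcription, but the labels give neither full names nor doses. Nothing in the labels says that replicates came from different cultures or animals, so p-values reflect the array-to-array spread alone, possibly technical.

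Keratins are the intermediate filament proteins of epithelial cells. Each filament is built from pairs of a type I and a type II keratin, and the pairs differ by cell type: Krt8 with Krt18, often joined by Krt7 or Krt19, in simple and luminal epithelium, Krt5 with Krt14 in basal and myoepithelial cells, and Krt1 with Krt10 in the layers above the basal layer of the epidermis. Krt6a, Krt6b, Krt16 and Krt17 are called stress keratins because skin epithelium induces them on wounding and in hyperproliferation, and hair keratins build the hair shaft. In the mammary gland, antibodies to luminal and basal keratins are the usual way of telling the 2 epithelial layers apart.

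By class the family comprised 5 simple, 3 basal, 4 stress, 11 suprabasal and 12 hair keratins, 8 of the inner root sheath and companion layer of the hair follicle, and 5 others. The RefSeq annotation of GRCm38.p6 placed 24 type I keratins on chromosome 11, and 22 type II keratins on chromosome 15 together with 1 type I keratin, Krt18, and with Krt88, whose type was not assigned. A group mean signal at or above that of the median gene (6.94 on the log2 scale) was reached by 14 keratins: Krt7, Krt8 and Krt18 of the simple class, Krt5 and Krt14, all 4 stress keratins, Krt10, Krt42, Krt80, and the hair keratins Krt81 and Krt83. Krt5 and Krt83 reached it only in the DMSO arrays of the first set. The other 34 stayed below it in every group, among them Krt15, Krt19, Krt20 and all 8 inner root sheath and companion layer keratins. Signals of different probe sets are not on a common scale, so this line separates dim from brighter probe sets and does not rank the keratins by transcript number. With 3 arrays a group, array number limits precision throughout.

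The second set spread more than the first. The median residual SD over genes was 0.236 on the log2 scale in the second set and 0.107 in the first, and each set was therefore fitted alone with limma. A call means an adjusted p under 0.05 (Benjamini-Hochberg over all 18193 genes). Errors are the SE of the moderated fit, with n = 3 arrays a group. The mean correlation of an array with the other 2 of its group was 0.9786, 0.9796 and 0.9852 for PHA+ICG replicates 1 to 3 and 0.9799, 0.9876 and 0.9882 for DMSO replicates 1 to 3 of the second set, against 0.9964 to 0.9977 in the first set. Results of the second set are therefore given with and without single arrays. In the second set the deviations of arrays that carry the same number from their group means correlated over genes at 0.614, 0.363 and 0.277, and those of number 2 with number 3 across the groups at 0.351 and 0.238. Number 1 thus stood apart from 2 and 3, which were not told apart by this measure. Calls under a fit blocked by number are also stated. The epithelial marker Epcam, an adhesion protein, read 9.40 to 9.51 in PHA, 8.89 to 9.11 in ICG and 9.40 to 9.45 in DMSO arrays of the first set, and 8.37 to 10.05 in PHA+ICG and 9.61 to 10.37 in DMSO arrays of the second. E-cadherin, Cdh1, read from 8.02 to 9.87 over all arrays. Both epithelial markers were above the median gene in every array.

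Start-site sequences are shown for 4 keratins with a RefSeq promoter, the simple keratins Krt7, Krt8 and Krt18 and the basal keratin Krt5. No promoter was available for Krt6a, Krt6b, Krt16, Krt17 or Krt80. Krt14 had a promoter and is not shown. Each runs from 250 bases before to 50 bases after the annotated start, taken from RefSeq with the GRCm38.p6 build, 5′ to 3′ on the gene's own strand. Capitals mark matches, on either strand, to any of 5 motifs. TATAAA is the core of the TATA box. TGANTCA is bound by AP-1 proteins. CTTTGAT is bound by TCF and LEF proteins, the partners of β-catenin. GGGCGG is the GC box. GCCNNNGGC is bound by AP-2 proteins.
Krt5, chr15:101712856-101713155, minus strand: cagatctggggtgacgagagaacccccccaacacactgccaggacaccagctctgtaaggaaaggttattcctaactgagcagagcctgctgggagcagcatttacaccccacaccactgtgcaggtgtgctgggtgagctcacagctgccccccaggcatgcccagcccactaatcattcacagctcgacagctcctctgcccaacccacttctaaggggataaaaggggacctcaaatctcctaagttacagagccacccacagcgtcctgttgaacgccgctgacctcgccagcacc
Krt7, chr15:101412153-101412452, plus strand: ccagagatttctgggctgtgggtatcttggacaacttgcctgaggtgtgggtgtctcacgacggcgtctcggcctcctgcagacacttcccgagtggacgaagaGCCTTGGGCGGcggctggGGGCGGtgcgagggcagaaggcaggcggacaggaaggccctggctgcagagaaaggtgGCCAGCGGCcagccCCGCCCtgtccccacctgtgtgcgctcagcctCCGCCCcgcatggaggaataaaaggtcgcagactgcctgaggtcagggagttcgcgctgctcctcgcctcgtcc
Krt8, chr15:102004293-102004592, minus strand: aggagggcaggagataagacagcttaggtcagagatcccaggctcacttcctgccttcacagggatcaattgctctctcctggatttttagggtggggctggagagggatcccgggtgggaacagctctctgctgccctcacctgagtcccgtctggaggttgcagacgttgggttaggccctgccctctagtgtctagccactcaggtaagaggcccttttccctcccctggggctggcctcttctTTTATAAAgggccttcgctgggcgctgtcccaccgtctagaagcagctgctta
Krt18, chr15:102027966-102028265, plus strand: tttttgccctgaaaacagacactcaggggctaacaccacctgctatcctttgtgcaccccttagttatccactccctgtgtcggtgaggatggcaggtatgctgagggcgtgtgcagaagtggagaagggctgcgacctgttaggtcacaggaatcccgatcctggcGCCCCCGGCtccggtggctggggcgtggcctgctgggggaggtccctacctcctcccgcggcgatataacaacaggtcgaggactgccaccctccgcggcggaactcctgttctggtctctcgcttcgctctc
The Krt7 window held 4 GC boxes and 2 AP-2 matches, of which 1 GC box and 1 AP-2 match overlap. The Krt8 window held 2 overlapping TATAAA matches, 1 on each strand, the Krt18 window 1 AP-2 match, and the Krt5 window none of the 5. The Krt8 matches began at −3 and −1 from the annotated start and span it. The shares that follow count a match anywhere in a window. RefSeq promoters were found for 32 of the 48 keratins, 33 windows in all. TATAAA occurred in 54.5% of them (18 windows), and in 13.6% of all 32851 windows of the same length. The GC box was present in 6.06% of keratin windows and in 35.7% of all windows. The AP-1 motif was present in 6.06% of keratin windows and 7.81% of all windows, the TCF and LEF motif in 3.03% and 3.73%, and the AP-2 motif in 12.1% and 16.6%. A match describes letters in the window and does not show binding.

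PHA against DMSO asks how the keratins respond when MET signalling is inhibited. PHA lowered all 4 stress keratins, both brighter basal keratins, the simple keratin Krt7 and Krt80, while the simple pair Krt8 and Krt18 did not pass the test. In all, 9 of the 48 keratins were called (18.8%, against 10.2% of all genes), 8 of them lower (7.07% of all genes were called lower) and 1 higher (3.14% of all genes).  All of the 8 calls held whichever of the 9 arrays of the first set was left out.

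Among the stress keratins, Krt17, a type I keratin of hair follicles and wounded epidermis, changed most. Its signal was 8.17, 8.09 and 7.94 in PHA arrays, 9.65, 9.86 and 9.46 in ICG arrays, and 9.45, 9.87 and 9.75 in DMSO arrays. The PHA arrays were thus more than 1 log2 unit below every DMSO array, and the ICG arrays lay within the DMSO range. The log2 fold change of PHA over DMSO was −1.62 ± 0.13 (limma adjusted p = 8.32e-05), a signal 3.08-fold lower. Krt16, the type I partner of the Krt6 proteins, read 9.64, 9.34 and 9.48 in PHA, 10.21, 10.58 and 10.10 in ICG, and 10.31, 10.72 and 10.69 in DMSO arrays. PHA fell below both other groups without overlap, by 1.08 ± 0.15 relative to DMSO (adjusted p = 0.0016). Krt6b was 10.47, 10.21 and 10.24 in PHA, 10.69, 10.71 and 10.55 in ICG, and 10.995, 11.40 and 11.50 in DMSO arrays, a log2 fold change of −0.99 ± 0.13 with PHA (adjusted p = 0.00116). Its close paralog Krt6a was 11.08, 11.03 and 10.99 in PHA, 11.47, 11.50 and 11.44 in ICG, and 11.74, 11.76 and 11.86 in DMSO arrays, which gave −0.75 ± 0.06 (adjusted p = 9.93e-05). For both Krt6 genes the 3 groups were fully separated, with ICG between PHA and DMSO. Krt6a and Krt6b are nearly identical in sequence, so their probe sets may share transcripts. The 4 stress keratins had a median log2 fold change of −1.04, and the median over all genes was 0.02.

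The basal pair followed with smaller changes. Krt14 read 10.44, 10.34 and 10.32 in PHA, 10.73, 10.88 and 10.56 in ICG, and 10.91, 11.22 and 11.09 in DMSO arrays. Every PHA array was below every ICG array and every ICG array below every DMSO array, and the log2 fold change with PHA was −0.70 ± 0.10 (adjusted p = 0.00194). Its type II partner Krt5 read 6.72, 6.26 and 6.71 in PHA, 6.82, 6.84 and 6.85 in ICG, and 7.32, 7.13 and 7.19 in DMSO arrays, a change of −0.65 ± 0.12 (adjusted p = 0.00667). PHA was again lowest, although the PHA array at 6.26 stood apart from the other 2. Krt15, a type I keratin of basal cells and hair follicle bulge, was dim and not called, so 2 of the 3 basal keratins fell.

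The simple keratins split under PHA. Krt7, a type II keratin of ducts and glands, read 8.70, 8.70 and 8.65 in PHA, 9.96, 10.11 and 9.85 in ICG, and 9.61, 9.75 and 9.62 in DMSO arrays. Every PHA array lay below and every ICG array above the DMSO arrays, and the log2 fold change with PHA was −0.98 ± 0.08 (adjusted p = 8.32e-05), a signal 1.97-fold lower. Krt8 read 9.89, 9.78 and 9.86 in PHA, 9.52, 9.37 and 9.32 in ICG, and 9.74, 9.74 and 9.74 in DMSO arrays, so that PHA was at or just above DMSO. Its PHA difference was 0.11 with a 95% interval of −0.05 to 0.26 (adjusted p = 0.366). Krt18, the type I partner of Krt8, read 9.58, 9.59 and 9.62 in PHA, 9.41, 9.41 and 9.19 in ICG, and 9.56, 9.57 and 9.46 in DMSO arrays, with a PHA difference of 0.07 and an interval of −0.10 to 0.23 (adjusted p = 0.619). The intervals exclude a fall of the size seen for Krt7. Krt19 and Krt20 were dim and not called.

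Of the remaining classes, 2 members were called with PHA. Krt80, a type II keratin found in many epithelia near cell junctions, read 7.26, 7.19 and 7.03 in PHA, 7.74, 7.78 and 7.67 in ICG, and 7.80, 7.98 and 7.71 in DMSO arrays, a change of −0.67 ± 0.09 (adjusted p = 0.00116). Krt26, an inner root sheath keratin, read 3.97, 4.00 and 3.86 in PHA, 3.94, 3.84 and 4.00 in ICG, and 3.71, 3.59 and 3.66 in DMSO arrays. Its log2 difference of 0.29 ± 0.07 (adjusted p = 0.0271) was measured on a dim probe set, and the call was lost without DMSO replicate 2 or 3 or PHA replicate 1 or 2, and with a replicate block. None of the 12 hair and 11 suprabasal keratins was called with PHA by limma; 2 in each class had an unadjusted p under 0.05. Hair keratins ranged from −0.22 to 0.24 with a median of 0.02, and suprabasal keratins from −0.34 for Krt79 to 0.27 for Krt76 with a median of 0.02. Krt42, a type I keratin with a bright probe set, read 8.75, 8.95 and 8.76 in PHA, 8.83, 8.78 and 8.62 in ICG, and 8.77, 8.61 and 8.90 in DMSO arrays, and all 3 groups overlapped.

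**Figure D1:**
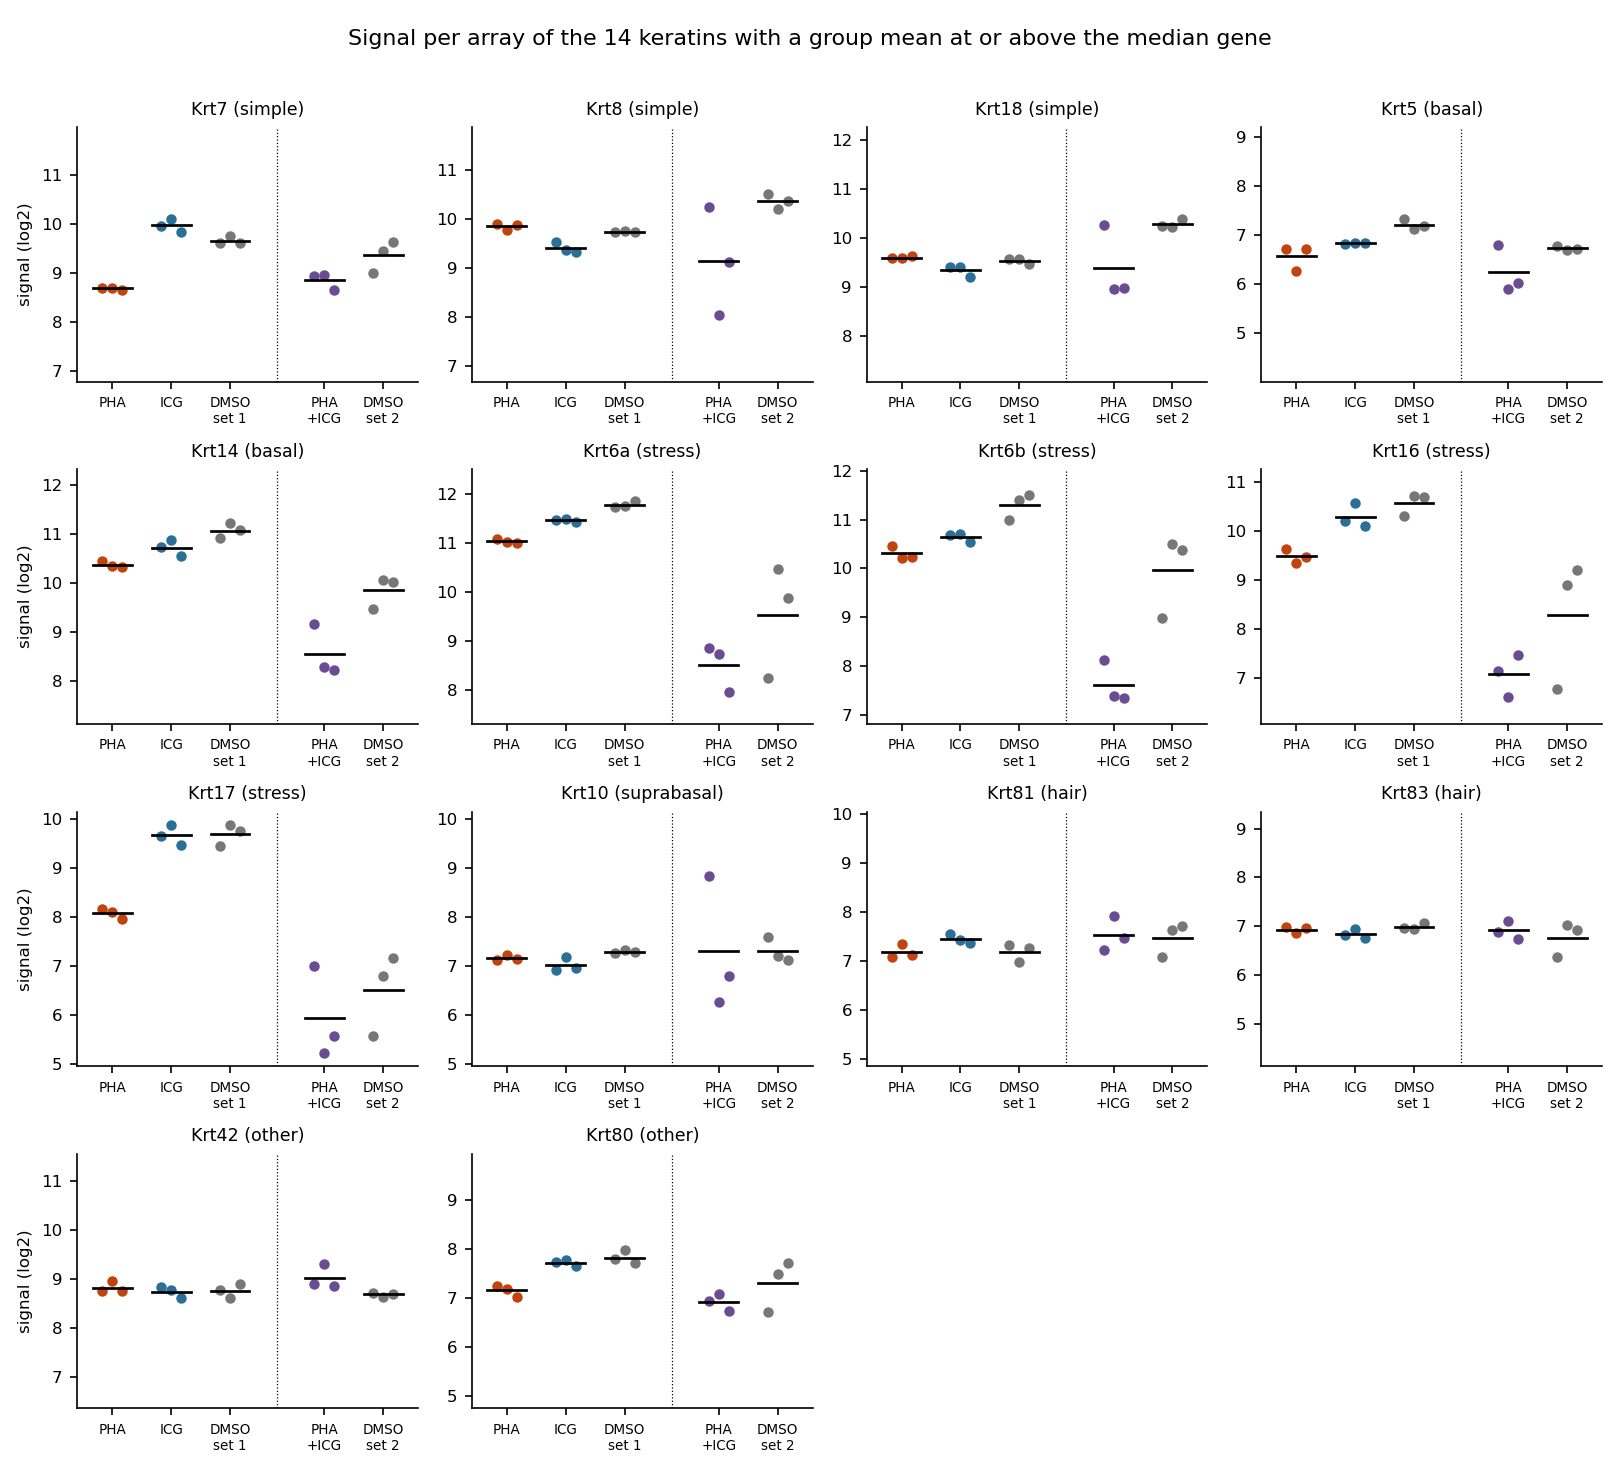
Signal on the log2 scale (vertical axis, the same span of units in each panel) of the 14 keratins with a group mean at or above the median gene, for each of the 15 arrays (points) with group means (bars); the dotted line parts the first set (PHA, ICG, DMSO) from the second (PHA+ICG, DMSO). Krt17 and Krt7 sat lower in PHA than in both other groups of the first set, Krt8 and Krt18 did not, and arrays of the second set were more scattered.

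The result rests on fitting each set alone. When the 15 arrays were fitted together, with the wider spread of the second set entering the SE, the same fold changes left only Krt7 called with PHA (adjusted p = 0.00312), and 182 genes in all in place of 1858. Other probe sets of the same genes bore on 3 of the calls. All 3 probe sets of Krt6a were lower with PHA, by log2 fold changes from −1.05 to −0.75. A second bright Krt14 probe set gave −0.71 ± 0.13 (adjusted p = 0.0108 over probe sets), and a dim one at a mean of 4.54 gave 0.14 and was not called. The other Krt17 probe set, dim at 3.63, gave −0.25 and did not pass (adjusted p = 0.0931). One further probe set is annotated to both Krt17 and Krt14 and was left out; it read 5.05 to 5.88 over all 15 arrays. Krt7, Krt8 and Krt10, and the dim Krt36, Krt76 and Krt82, were measured only by probe sets of the kinds that can match several transcripts. The Krt14 probe set behind the main values is of these kinds, and the second bright one is plain. The bright Krt42 probe set is of these kinds too, and the plain Krt42 probe set had a mean of 5.41, below the median gene.

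Written lists of genes around keratin filaments, chiefly anchors, linkers and regulators, were examined alongside. Their counts with PHA are read against 7.07% of all genes called lower and 3.14% called higher. Hemidesmosomes tie keratins to the basement membrane, and of 9 measured hemidesmosome and anchor genes 6 fell with PHA and none was called higher, with a median of −0.37. Col17a1, a transmembrane collagen of the hemidesmosome, changed by −0.97 ± 0.14 (adjusted p = 0.00202), and the laminin-332 chain genes Lama3 and Lamb3 by −0.81 ± 0.09 and −0.78 ± 0.11. Itga6, the α6 integrin subunit, changed by −0.38 ± 0.10. Desmosomes tie keratins to cell junctions, and 4 of 11 desmosome genes fell with PHA: Pkp1 by 0.56 ± 0.07, Perp by 0.36 ± 0.10, Dsc2 by 0.35 ± 0.07 and Jup, plakoglobin, by 0.34 ± 0.07 on the log2 scale. On the cytolinker and scaffold list, which also holds Krtcap2 and the transcription factor Trp63, 3 of 12 genes fell. Tchh, trichohyalin, which binds keratins in the inner root sheath, changed by −1.70 ± 0.10 (adjusted p = 2.05e-05), Flg, filaggrin, which bundles keratins in the epidermis, by −0.78 ± 0.11, and Sfn, a 14-3-3 protein of squamous epithelium, by −0.57 ± 0.15. Among 24 transcription factors that act on keratin genes 5 fell and none was called higher. Grhl3, a factor of epidermal barrier formation, changed by −1.06 ± 0.08, Klf4 by −0.76 ± 0.06, the luminal progenitor factor Elf5 by −0.44 ± 0.11 and the AP-1 member Fosl1 by −0.40 ± 0.09. Of 15 genes of other intermediate filaments, 1 was called with PHA, Lmna (lamin A and C), at −0.44 ± 0.07. That list was thus not called lower more often than all genes. The median of all genes in this comparison was 0.02. Met itself, the receptor gene, changed by −0.35 ± 0.07 (adjusted p = 0.0104).

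ICG against DMSO addresses transcription driven by β-catenin. The same DMSO arrays serve as for PHA, so the 2 comparisons are not independent. With ICG the Krt6 genes, the basal pair and Krt8 were lower, by 0.32 to 0.65 on the log2 scale, and Krt7 was higher by 0.31. Of the 48 keratins 11 were called (22.9%), against 26.9% of all genes; 7 were lower (15% of all genes) and 4 higher (11.9% of all genes), so the family was not called more often than other genes. Quantile normalization turned the split of all calls to 13.5% lower and 14.8% higher, and that of the keratins to 5 and 5.

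Among stress keratins, Krt6b fell with ICG by 0.65 ± 0.13 (adjusted p = 0.00382) and Krt6a by 0.32 ± 0.06 (adjusted p = 0.00352). Krt16 differed by −0.28 with an interval of −0.60 to 0.05 (adjusted p = 0.203), and Krt17 by −0.03 with an interval of −0.31 to 0.25 (adjusted p = 0.893). Basal Krt5 changed by −0.38 ± 0.12 (adjusted p = 0.0356) and Krt14 by −0.35 ± 0.10 (adjusted p = 0.024). The Krt5 call was lost when any 1 of the 6 ICG and DMSO arrays was left out, and that of Krt14 without ICG replicate 1 or 3 or DMSO replicate 2 or 3. The Krt5 call was also lost under quantile normalization (adjusted p = 0.0844), and that of Krt14 with plain probe sets (0.0538) and with the mean of its probe sets (0.192). Among simple keratins, Krt8 fell by 0.34 ± 0.07 (adjusted p = 0.00486) and Krt7 changed by 0.31 ± 0.08 (adjusted p = 0.0132), each with all 3 ICG arrays beyond all 3 DMSO arrays. All 3 probe sets of Krt8 were lower, from −0.41 to −0.34. Krt18 differed by −0.20 ± 0.07 and did not pass (adjusted p = 0.0692). Krt6a, Krt6b, Krt7 and Krt8 kept their calls in all 9 fits that left out 1 array.

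The other 5 calls with ICG were small and less stable. Krt10, the type I keratin of suprabasal epidermis, read 7.12, 7.23 and 7.14 in PHA, 6.92, 7.18 and 6.96 in ICG and 7.26, 7.33 and 7.28 in DMSO arrays, and changed with ICG by −0.27 ± 0.08 (adjusted p = 0.0256). Krt23, a type I keratin of glandular epithelium, read 5.58, 5.59 and 5.99 in PHA, 6.37, 6.38 and 6.10 in ICG and 5.99, 5.92 and 5.70 in DMSO arrays, a change of 0.41 ± 0.13 with ICG (adjusted p = 0.0375). The hair keratin Krt31 read 6.05, 6.13 and 6.09 in PHA, 6.17, 6.10 and 6.18 in ICG and 6.03, 5.87 and 5.77 in DMSO arrays, a change of 0.26 ± 0.07 (adjusted p = 0.0251). In each of these the ICG arrays stood beyond the DMSO arrays, by a narrow margin. The inner root sheath keratins Krt26 and Krt27 changed by 0.27 ± 0.07 and −0.26 ± 0.08 (adjusted p = 0.0159 and 0.0327), both on dim probe sets; Krt27 read 4.21, 4.07 and 3.95 in PHA, 3.95, 3.98 and 3.86 in ICG and 4.18, 4.12 and 4.28 in DMSO arrays. Each of the 5 calls was lost on leaving out some single arrays: Krt10 and Krt31 without ICG replicate 1 or 3 or DMSO replicate 2 or 3, Krt23 without ICG replicate 1 or 2 or DMSO replicate 2 or 3, Krt26 without ICG replicate 3 or DMSO replicate 2, and Krt27 without any ICG replicate or DMSO replicate 1 or 3. Quantile normalization also ended the Krt10 call, a replicate block those of Krt23, Krt27 and Krt31, and an intensity trend those of Krt27 and Krt31. In the fit of all 15 arrays all 11 calls were lost. Hair keratins had a median of 0.17 with 1 of 12 called, stress keratins −0.30 with 2 of 4 called, and all genes 0.03.

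On the same lists, shares called with ICG are read against 26.9% of all genes, 11.9% higher and 15% lower. Of 9 hemidesmosome and anchor genes 4 fell, among them Col7a1, the anchoring fibril collagen, at −1.25 ± 0.10 and Col17a1 at −0.66 ± 0.14, and 1 rose, Itga6, at 0.36 ± 0.10. Of 11 desmosome genes Dsp, desmoplakin, changed by −0.39 ± 0.07 and Dsc2 by 0.51 ± 0.07. On the cytolinker and scaffold list 3 of 12 genes rose, Krtcap2 (0.60 ± 0.07), Eppk1, the plakin epiplakin (0.48 ± 0.15), and Fam83h, a keratin-binding scaffold (0.25 ± 0.08). Krtcap2 is named for keratinocytes and is not a linker of keratin filaments. Of 24 keratin transcription factors 4 rose and 2 fell, with Grhl3 at −0.76 ± 0.08 and Nfe2l2 at 0.31 ± 0.06. The factors were thus called about as often as all genes. The β-catenin gene Ctnnb1 changed by 0.28 ± 0.05 (adjusted p = 0.00434), and its target gene Axin2 differed by −0.17 ± 0.07 and did not pass (adjusted p = 0.0846).

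Set against each other, the 2 single treatments differed in 9 of 48 keratins (18.8%), against 27.1% of all genes. PHA was lower in 7 (13.4% of all genes were lower) and higher in 2 (13.7%). Krt17 was lower in PHA than in ICG by 1.59 ± 0.13 (a log2 difference of −1.59, adjusted p = 2.09e-05), Krt7 differed by −1.29 ± 0.08 (adjusted p = 4.64e-06), Krt16 by −0.81 ± 0.15, Krt80 by −0.57 ± 0.09, Krt23 by −0.57 ± 0.13, Krt6a by −0.43 ± 0.06 and Krt14 by −0.35 ± 0.10. Krt8 was higher in PHA by 0.44 ± 0.07 (adjusted p = 0.000924) and Krt18 by 0.26 ± 0.07 (adjusted p = 0.021). The calls of Krt14 and Krt18 did not hold in 4 of the 9 fits that left out 1 array, those of Krt14 without PHA replicate 2 or 3 or ICG replicate 1 or 2 and those of Krt18 without any PHA replicate or ICG replicate 3, and the other 7 held in all. The Krt14 call was also lost with plain probe sets and with the mean of its probe sets. Krt6b differed by −0.34 with an interval of −0.62 to −0.06 (adjusted p = 0.0732) and Krt5 by −0.27 with −0.53 to −0.01 (adjusted p = 0.115), neither past the threshold. Of the simple, basal and stress classes, 3 of 5, 1 of 3 and 3 of 4 members were called, and of hair, suprabasal and inner root sheath and companion layer keratins none was called by limma, with 1, 2 and 1 at an unadjusted p under 0.05. Krt7 and Krt17 remained called in the fit of all 15 arrays.

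**Figure D2:**
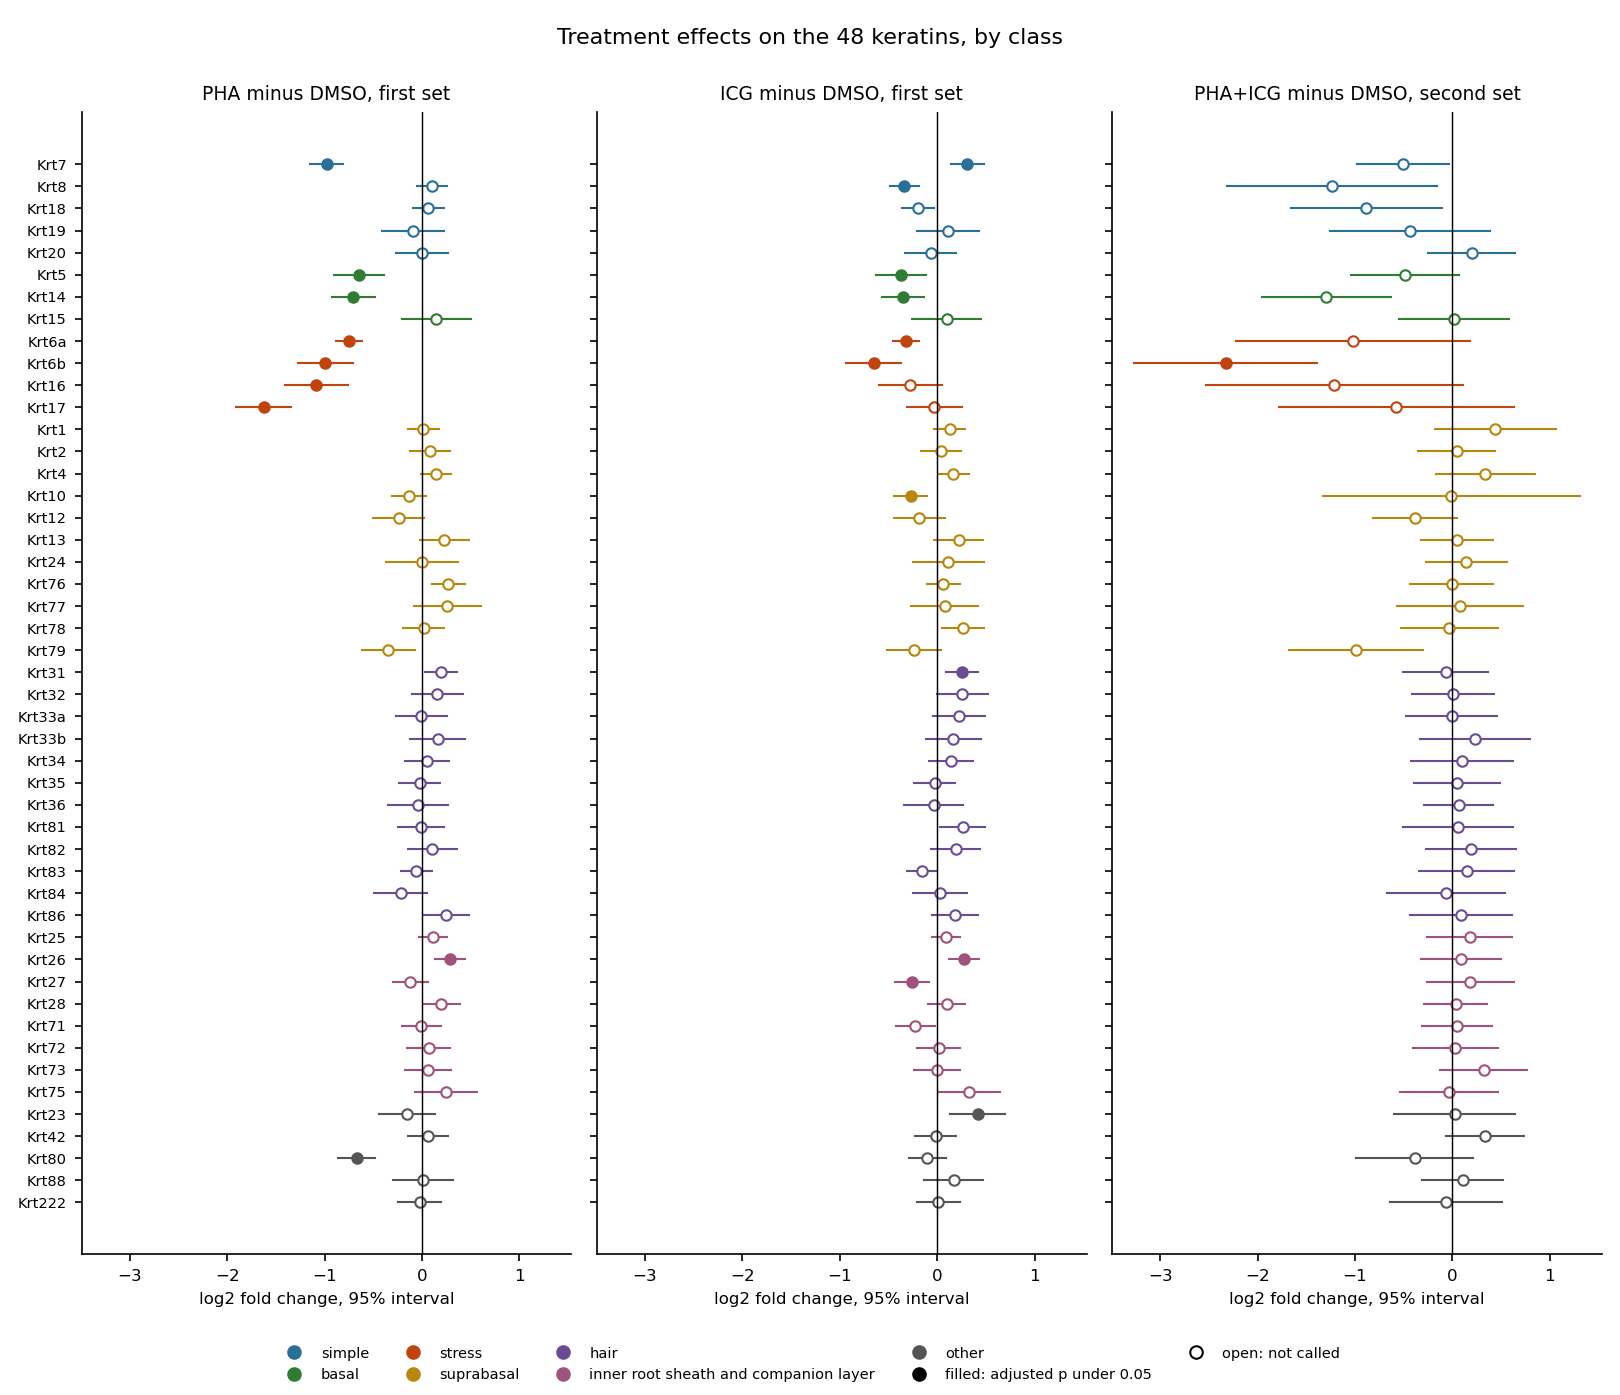
Log2 fold change (horizontal axis, points, with 95% intervals from limma) of each of the 48 keratins, grouped by class, for PHA and ICG against DMSO of the first set and PHA+ICG against DMSO of the second; filled points are called at an adjusted p under 0.05. With PHA the stress keratins, Krt5, Krt14, Krt7 and Krt80 lie left of 0, and the intervals of PHA+ICG are wider.

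PHA+ICG was measured against the DMSO arrays of its own set. Of the 48 keratins 1 was called (2.08%), against 2.02% of all genes: Krt6b was lower (1.54% of all genes were called lower). Another 5 keratins had an unadjusted p under 0.05. Krt6b read 8.14, 7.40 and 7.35 in PHA+ICG arrays and 8.99, 10.50 and 10.39 in DMSO arrays. Each PHA+ICG array was below each DMSO array, and the first DMSO array was more than 1 log2 unit below the other 2. The log2 fold change was −2.33 ± 0.41 (adjusted p = 0.0316), a signal 5.03-fold lower, and the call was lost without PHA+ICG replicate 2 or 3 or DMSO replicate 2 or 3, with adjusted p up to 0.129.

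The other stress keratins varied with the replicate number. Krt6a read 8.86, 8.74 and 7.95 in PHA+ICG and 8.24, 10.48 and 9.89 in DMSO arrays, Krt16 7.15, 6.61 and 7.47 in PHA+ICG and 6.78, 8.89 and 9.20 in DMSO arrays, and Krt17 6.99, 5.22 and 5.57 in PHA+ICG and 5.55, 6.79 and 7.16 in DMSO arrays. In all 3 the DMSO array with number 1 was as low as the PHA+ICG arrays, and the groups overlapped. The differences were −1.02 ± 0.53, −1.21 ± 0.58 and −0.57 ± 0.53, none past the threshold (adjusted p = 0.487, 0.431 and 0.789). Without that DMSO array Krt6a gave −1.67 ± 0.32 (adjusted p = 0.0493), Krt16 −1.97 ± 0.27 (adjusted p = 0.0163) and Krt6b −2.82 ± 0.27 (adjusted p = 0.00708), the only 3 keratins then called (6.25% of the family lower, against 1.4% of all genes). Over the fits that left out each of the 6 arrays, the Krt6a difference reached −0.55 and an adjusted p of 0.872, and that of Krt16 −0.76 and 0.835. This array was singled out on the keratin values themselves, so the calls without it describe its weight and are no support for a fall.

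The basal and simple keratins were set apart by another array. Krt14 read 9.17, 8.28 and 8.23 in PHA+ICG and 9.47, 10.07 and 10.02 in DMSO arrays, with no overlap and a difference of −1.29 ± 0.29 (adjusted p = 0.068). Krt8 read 10.24, 8.04 and 9.12 in PHA+ICG and 10.51, 10.21 and 10.37 in DMSO arrays, and Krt18 10.27, 8.95 and 8.97 in PHA+ICG and 10.23, 10.22 and 10.38 in DMSO arrays. PHA+ICG replicate 1 was at the DMSO level for both, and the other 2 arrays were at least 1 log2 unit lower. The differences were −1.23 ± 0.47 (adjusted p = 0.285) for Krt8 and −0.88 ± 0.34 (adjusted p = 0.287) for Krt18. Without PHA+ICG replicate 1, Krt8 gave −1.79 ± 0.31 (adjusted p = 0.0362), Krt18 −1.32 ± 0.17 (adjusted p = 0.0159), Krt14 −1.60 ± 0.23 (adjusted p = 0.0207) and Krt6b −2.58 ± 0.43 (adjusted p = 0.0329), 8.33% of the family lower, against 1.79% of all genes. The array left out is the one that lay against the fall, and other arrays moved the values the other way: over all 6 such fits Krt8 reached −0.69 (adjusted p up to 0.549) and Krt18 −0.66 (adjusted p up to 0.602). Without PHA+ICG replicate 2 or 3, or DMSO replicate 2 or 3, the Krt6b call was lost and no other keratin gained one. With the replicate number as a block, 4 keratins were called and all were lower: Krt6b (adjusted p = 0.00334), Krt14 (0.0149), Krt79 (0.0167) and Krt8 (0.0262). The block also raised the share of all genes called lower to 6.01%, near the 8.33% of the family.

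Krt79, a keratin of sebaceous and hair follicle duct epithelium, read 5.72, 5.56 and 5.54 in PHA+ICG and 7.35, 6.15 and 6.29 in DMSO arrays, a difference of −0.99 ± 0.30 that did not pass without the block (adjusted p = 0.169). Krt7 read 8.94, 8.96 and 8.66 in PHA+ICG and 8.99, 9.46 and 9.63 in DMSO arrays, with a difference of −0.51 ± 0.20 (adjusted p = 0.32). Krt5 read 6.80, 5.90 and 6.03 in PHA+ICG and 6.78, 6.69 and 6.72 in DMSO arrays, and Krt80 6.96, 7.09 and 6.74 in PHA+ICG and 6.73, 7.50 and 7.71 in DMSO arrays; the groups overlapped for both. Krt10 read 8.84, 6.26 and 6.79 in PHA+ICG and 7.60, 7.21 and 7.13 in DMSO arrays. Its value in PHA+ICG replicate 1 was more than 1 log2 unit above every other array of the series. Krt42 read 8.89, 9.31 and 8.86 in PHA+ICG and 8.72, 8.64 and 8.70 in DMSO arrays, a difference of 0.34 ± 0.17 (adjusted p = 0.49). Krt23 read 5.16, 5.04 and 5.23 in PHA+ICG and 4.47, 5.51 and 5.38 in DMSO arrays. The groups overlapped for Krt23, and also for the other keratins called with ICG at low signal or by small changes. Krt26 read 3.74, 4.21 and 3.80 in PHA+ICG and 3.96, 3.78 and 3.76 in DMSO arrays, Krt27 3.90, 4.31 and 4.12 in PHA+ICG and 3.63, 4.02 and 4.14 in DMSO arrays, and Krt31 6.02, 6.56 and 6.08 in PHA+ICG and 6.20, 6.43 and 6.24 in DMSO arrays. Hair keratins ranged from −0.07 to 0.23 and inner root sheath and companion layer keratins from −0.04 to 0.32, none called; no member of these classes had an unadjusted p under 0.05. Stress keratins had a median of −1.12, simple keratins −0.51, and all genes 0.00. On the lists of hemidesmosome, desmosome, cytolinker and keratin factor genes (9, 11, 12 and 24 measured) none was called with PHA+ICG by limma. In these lists 2, 2, 1 and 0 had an unadjusted p under 0.05.

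**Figure D3:**
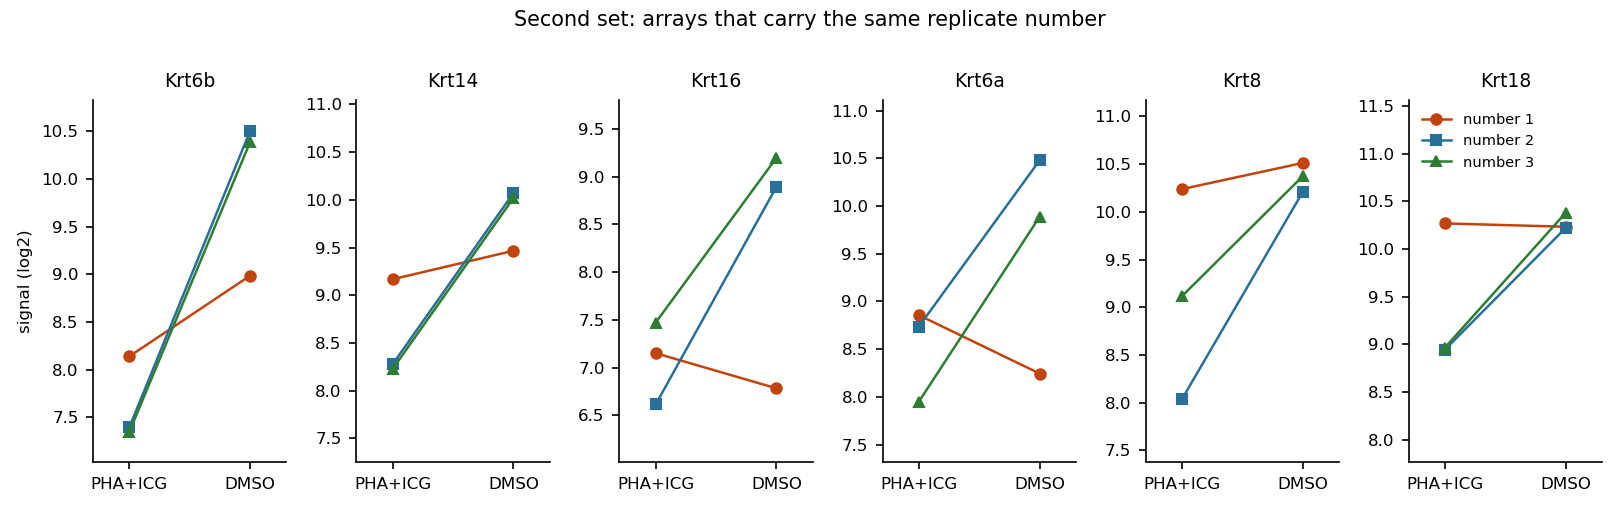
Signal on the log2 scale (vertical axis, the same span of units in each panel) of 6 keratins in PHA+ICG and DMSO arrays of the second set; each line joins the 2 arrays with the same replicate number. Numbers 2 and 3 were lower in PHA+ICG than in DMSO for all 6, and number 1 differed less or the other way.

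Whether the combination differed from a single treatment was tested as a difference of 2 effects, each against DMSO of its own set, over all 15 arrays. No keratin was called by limma, against 4.73% of all genes for PHA+ICG minus PHA and 0.879% for PHA+ICG minus ICG; 4 and 5 keratins had an unadjusted p under 0.05. Krt8 had the lowest difference against PHA, −1.34 with an interval of −2.40 to −0.28 (adjusted p = 0.163), followed by Krt6b at −1.34 with −2.29 to −0.38 (adjusted p = 0.116) and Krt18 at −0.95 with −1.70 to −0.20 (adjusted p = 0.164). Krt7 differed by 0.47 with 0.03 to 0.91 (adjusted p = 0.26) and Krt17 by 1.05 with −0.17 to 2.27 (adjusted p = 0.407). Against ICG, Krt6b differed by −1.68 with −2.63 to −0.72 (adjusted p = 0.124), Krt14 by −0.94 with −1.60 to −0.28 (adjusted p = 0.258) and Krt7 by −0.82 with −1.26 to −0.38 (adjusted p = 0.092). Without PHA+ICG replicate 1, the same 4 keratins were called against each single treatment: against PHA, Krt8 at −1.89, Krt18 at −1.39, Krt6b at −1.59 and Krt14 at −0.90, and against ICG, −1.45, −1.12, −1.93 and −1.25. That is 8.33% of the family, against 6.12% of all genes called lower relative to PHA and 2.01% relative to ICG. Without DMSO replicate 1 of the second set, Krt6b was called against PHA at −1.82, and Krt6b, Krt6a, Krt16 and Krt7 against ICG at −2.17, −1.35, −1.69 and −1.0, where 3.45% and 1.35% of all genes were called lower. Leaving out any other single array called no keratin in either difference. Both of these arrays were singled out on the keratin values themselves, so the calls without them describe their weight and are no support for a difference. On simulated data, differences of effects also made more false calls than the threshold allows for. With the replicate number as a block, Krt8 was called against PHA (adjusted p = 0.0317), 2.08% of the family, against 5.67% of all genes called lower. These tests pool the spread of both sets, which was unequal, and any influence of the set on the size of an effect cannot be told apart from that of the combination.

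Markers of other cell types moved with the same groups. In bulk RNA, fewer cells of a type and less RNA per cell cannot be told apart. PHA lowered 9 of 13 fibroblast markers, ICG 12 and PHA+ICG 2, where 7.07%, 15% and 1.54% of all genes were called lower. Their mean signal per array was 9.51 to 9.63 in PHA, 8.80 to 9.40 in ICG and 10.17 to 10.76 in DMSO arrays of the first set, and 11.30 to 11.67 in PHA+ICG and 12.04 to 12.31 in DMSO arrays of the second. Of 13 leukocyte markers 5 fell with PHA and 8 with ICG, with means of 9.71 to 9.82 in PHA, 9.08 to 9.36 in ICG and 9.94 to 10.29 in DMSO arrays. In the second set the leukocyte mean was 8.41, 6.82 and 6.73 in PHA+ICG and 9.50, 7.56 and 7.48 in DMSO arrays, with number 1 high in both groups. Luminal markers other than keratins were called in both directions, 3 higher and 3 lower of 14 with PHA and 4 higher and 3 lower with ICG, against 10.2% and 26.9% of all genes called in either direction. Their means were 7.12 to 7.15 in PHA, 7.24 to 7.30 in ICG and 7.17 to 7.24 in DMSO arrays, and 7.75, 6.93 and 6.80 in PHA+ICG and 7.89, 7.53 and 7.61 in DMSO arrays of the second set. PHA+ICG replicate 1, at the DMSO level for Krt8 and Krt18, had the highest luminal mean of its group. This was not particular to luminal markers. The same array was highest for the fibroblast, leukocyte, desmosome, hemidesmosome, cytolinker and keratin factor lists. It was not highest for the basal, endothelial or other intermediate filament lists. Of 14 basal and myoepithelial markers other than keratins 2 fell with PHA, Acta2 (−0.49 ± 0.11) and Snai2 (−0.39 ± 0.07), and with ICG Acta2 and Sparc fell and Vcan and Snai2 rose. Of 10 endothelial markers 1 rose and 2 fell with PHA by limma, and 6 had an unadjusted p under 0.05. With ICG 2 rose and 0 fell by limma, and no further member had an unadjusted p under 0.05. The part of these shifts in the keratin differences was not tested.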

How the data were processed

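Values of 45101 probe sets on 15 arrays were used as deposited, on the log2 scale; the submitters' processing notes name MAS5 and RMA, without versions or roles, and the range of the values resembles that of RMA output. Whether both sets were normalized together is not given in the sources used here. The arrays form 5 groups of 3, with treatments from the labels and the 2 sets inferred from the codes JAH and JHO in the array titles. Each treatment was set against DMSO of its own set.

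The platform annotation gave 1 symbol to 34945 probe sets, several to 932 (left out) and none to 9160; 64 controls were left out. The probe set with the highest mean represented each of 18193 genes, which follows the brightest transcript and can hide others. The first set (6 residual and 3.98 prior degrees of freedom), the second set (4 and 4.23) and, for differences of effects, all 15 arrays (10 and 4.33) were fitted with limma 3.58.1 in R 4.3.3. P-values were adjusted by Benjamini-Hochberg over all genes. Tested on simulated data that kept the spread of each set, the fits recovered the same change far less often in the second set than in the first, and the differences of effects made more false calls than the threshold allows for. Deviations from group means of arrays that share a number correlated from −0.262 to 0.117 in the first set, which was analysed unpaired. In the second all 3 correlations exceeded 0.1, although numbers 2 and 3 correlated about as highly when crossed. The main fit of the second set was unpaired too, and the number entered as a block only in an alternative fit.

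Each keratin called in any comparison and the 8 with the highest mean signal were named with all their values; other genes came from written lists, at most 4 called members for each list and comparison, beside Met, Axin2 and Ctnnb1. The members, classes and lists were chosen with earlier results of these data known. RefSeq tables of GRCm38.p6 gave promoters. Python 3.11.15 with pandas 2.3.3, numpy 2.4.6 and matplotlib 3.10.9 made tables and figures. Alternatives covered the arrays fitted, the replicate block, normalization, the choice of probe set, a filter on dim genes, an intensity trend and leaving out each array.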

Additional observations from a re-analysis of the deposited data

How the results depend on the processing

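Over 72 pairs of a named keratin and a comparison, 1190 values under alternatives gave 1056 with the same direction and the same side of the threshold, 83 with a lost call, 27 with a gained call and 24 with the opposite sign. No called keratin changed sign in its 495 alternatives, and 412 of these kept the call. Fitting all 15 arrays together moved the keratins called to 1 for PHA, 0 for ICG, 2 for PHA minus ICG and 6 for PHA+ICG. It moved all genes called to 182, 1255, 1463 and 2413. The fold changes are the same in that fit, and the SE pools both sets. The replicate block gave 4 keratins for PHA+ICG and 1 for PHA+ICG minus PHA effect, with 1202 genes for PHA, 1442 for PHA+ICG, 1684 for PHA+ICG minus PHA effect and 431 for PHA+ICG minus ICG effect. In the first set, where what a number shares is not given, it left 8 keratins for PHA, 8 for ICG and 9 for PHA minus ICG. Only plain probe sets left 7 keratins for ICG. A weight per set, chosen after seeing the data, gave 499 and 70 genes for the differences of effects from PHA and ICG, and no keratin in either. Leaving out 1 array moved the keratins called between 8 and 11 for PHA, 5 and 12 for ICG, 7 and 12 for PHA minus ICG, and 0 and 4 for PHA+ICG and for each difference of effects. For ICG, 5 keratins were called without ICG replicate 1 or 3 or DMSO replicate 3, and 6 without DMSO replicate 2. All genes called moved between 1005 and 1790 for PHA, 3696 and 4756 for ICG, 3922 and 5087 for PHA minus ICG, 56 and 389 for PHA+ICG, 479 and 1530 for PHA+ICG minus PHA effect, and 67 and 470 for PHA+ICG minus ICG effect. The lowest for PHA+ICG was without DMSO replicate 3, and the highest for both differences without PHA+ICG replicate 1. Quantile normalization changed the split of all calls to 902 higher and 1103 lower for PHA (572 and 1286 as deposited), 134 and 235 for PHA+ICG (87 and 281), and 80 and 93 for PHA+ICG minus ICG effect (53 and 107), and turned the larger side for ICG, with 2692 higher and 2448 lower (2162 and 2734), for PHA+ICG minus PHA effect, with 553 and 536 (352 and 508), and for PHA minus ICG, with 2534 and 2538 (2497 and 2442).

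Signs turned only for keratins that were not called. Under quantile normalization the log2 difference was 0.016 for Krt10 and 0.018 for Krt31 with PHA+ICG and 0.044 for Krt42 with ICG. With the mean of a gene's probe sets it was 0.089 for Krt17 with ICG and −0.092 for Krt42 with PHA; with plain probe sets Krt42 gave −0.25 with PHA and −0.011 for PHA minus ICG. On leaving out 1 array, Krt10 ranged from −0.79 to 0.50 with PHA+ICG, Krt23 from −0.30 to 0.22, Krt26 from −0.057 to 0.18 and Krt31 from −0.24 to 0.031; with ICG, Krt17 ranged from −0.15 to 0.069 and Krt42 from −0.091 to 0.053; with PHA, Krt42 ranged from −0.014 to 0.13; and for PHA minus ICG, Krt26 ranged from −0.026 to 0.061. Of 771 medians of keratin classes under alternatives, 743 stayed within 1 SD between replicates. The cause of these shifts was not tested.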
